A study of Homo sapiens with 6 samples.

Results

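Retained-intron transcripts of expressed protein-coding genes were examined in K562 cells, an established human chronic myelogenous leukemia line, after iron chelation. A transcript was taken when GENCODE v44 types it as retained_intron within a protein_coding gene, when it is at least 1000 bases long, and when salmon assigned it at least 10 reads in at least 3 of the 6 libraries. This gave 8586 transcripts in 4288 genes, out of 252045 transcripts quantified and 15185 retained-intron transcripts of that length. The members were chosen by their read counts and length, so their detection is a description and not a result. At the edge of that threshold, NEK7-206 and TOGARAM2-207 entered with a third-highest count of 10.0, and AIMP1-218 and CEP120-204 stayed out at 9.998. At the edge of the length limit, KMT5A-204 and SYMPK-210 entered at 1000 bases, and STAT5B-206 and RHBDD3-206 stayed out at 999 bases.

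The cells were kept overnight with 10 µM 21H7, a small-molecule iron chelator (Chelator, 3 libraries), or with the same volume of its solvent DMSO (DMSO, 3 libraries). Both groups are wild-type cultures of this one line, with no edited allele. Polyadenylated RNA was sequenced as read pairs, and each library held 78.6 to 101.1 M estimated reads on transcripts (M standing for 1e6). Globin genes of the erythroid program were high in every library, with HBG1 between 3663 and 4891 TPM (a level scaled to transcript length and to the library total), while CD3E, MS4A1, CD14, ALB and KRT5 were between 0 and 0.552 TPM. The globins HBG1, HBG2, HBE1 and HBZ lay higher in Chelator without overlap. The erythroid regulators KLF1, LMO2, NFE2 and TAL1 lay lower without overlap, with KLF1 at 77.8 to 87.4 TPM in DMSO and 47.7 to 52.9 TPM in Chelator. Among markers of other tissue types, COL1A1 was at 0.502 to 0.646 TPM in DMSO and 1.65 to 2.10 TPM in Chelator, and EPCAM at 62.3 to 68.8 and 45.6 to 50.3 TPM. The part of these shifts in the values below was not tested. The mean fragment length that salmon used was 252 to 264 bases in DMSO and 200 to 218 bases in Chelator, without overlap, and its part in the values below was not tested.

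Splicing normally removes every intron before a messenger RNA leaves the nucleus. A transcript that keeps an intron is often held in the nucleus or, where it reaches the ribosome, is destroyed by nonsense-mediated decay, so it rarely makes the gene's full protein. Cells use such introns to set the output of genes for splicing factors, stress responses and blood cell maturation. The poly C-binding proteins that carry iron inside cells also bind C-rich RNA, including tracts near splice sites.

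Of the 8586 members, 4539 held at least 1 complete intron of the gene's canonical coding transcript, and 3796 started or ended inside such an intron. In 1674 members (19.5%), every base also lies in another transcript of the gene, so salmon placed their reads by which exons and introns occur together and not by bases of their own. In most genes only 1 member was found (2463 genes), and 946 genes had 3 or more. Because reads can be exchanged among overlapping isoforms, the share of the gene's TPM was taken both for each member and for all retained-intron transcripts of at least 1000 bases of a gene added together, called the retained-intron share below. Adding them takes the division within the class out of its read count. Its share of TPM still depends on that division where the transcripts differ in length.

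Splice sites of complete introns held by members that the results turn on are shown first, read from the hg38 genome on the transcribed strand. Each 5′ site has 6 exon bases and 20 intron bases, each 3′ site has 26 intron bases and 3 exon bases, and capitals mark the first and last 2 bases of the intron. They are intron 3 of 6 of CWC15, which encodes a spliceosome component, at chr11:94971066-94971374; intron 6 of 10 of DDX39B, which encodes an RNA helicase for splicing and export, at chr6:31532912-31535366; and intron 10 of 11 of TIAL1, which encodes an RNA-binding splicing regulator, at chr10:119576751-119577079.
CWC15 5′ site: cccgagGTaccaacactatccaagac
CWC15 3′ site: gttaaatgatttttgtttccccccAGaac
DDX39B 5′ site: caagatGTaaatacccttctaccttc
DDX39B 3′ site: ttccccacccccttcctcccccccAGcca
TIAL1 5′ site: caacagGTaattcgatttttcatagc
TIAL1 3′ site: taaaacaatactttgctttttcctAGgtt
The introns differ widely in their end, with C at 70% of the last 50 bases in DDX39B, 14% in CWC15 and 20% in TIAL1.

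A further set comes from genes of iron handling and from the gene whose share fell furthest among those counted in all 6 libraries: intron 12 of 18 of TFRC, the transferrin receptor, at chr3:196062646-196062853; intron 2 of 3 of SLC25A28, the mitochondrial iron carrier mitoferrin-2, at chr10:99612600-99613695; intron 12 of 14 of PCBP2, the poly C-binding protein and iron chaperone, at chr12:53467844-53468776; and intron 3 of 6 of ICOSLG, a costimulatory ligand, at chr21:44235563-44236866.
TFRC 5′ site: ctagagGTattctttatcatcccttc
TFRC 3′ site: tattagtgttttcccttctcttctAGgga
SLC25A28 5′ site: ccaatgGTattgagccttcctgtgct
SLC25A28 3′ site: tgtggcagttgttttcttgtttgcAGgtg
PCBP2 5′ site: attgggGTaatgattaaaaaaaaaaa
PCBP2 3′ site: tttgcttgctctcttctgtcttttAGcag
ICOSLG 5′ site: tggcagGTaggaccatcgaggcgggg
ICOSLG 3′ site: tcacaatctgtttccctcccctgcAGcaa
All 4 introns begin with GT and end with AG, as do 98.7% of the introns held complete by members.

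The introns held complete were short and rich in G and C. Their median length was 374 bases (n = 6200) against 1321 bases for the 55560 canonical introns of the same genes that no member holds, and their median GC content was 53.3% against 45.1%. The letters CCCC, searched on the transcribed strand in the last 50 intron bases, were present in 36.6% of the held introns and 26.7% of the others. Among held introns the figure was 36.2% where the member's share was higher in all Chelator libraries than in all DMSO libraries, and 42.4% where it was lower in all of them. These are descriptions of annotated introns, which share genes, and a match is not a binding site.

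Retained-intron transcripts made up a small and slightly larger part of the RNA after chelation. Members together took 1.48%, 1.63% and 1.49% of all TPM in DMSO, and 1.73%, 1.82% and 1.84% in Chelator. The groups did not overlap, and the difference was 0.266 percentage points. Of the members, 211 met the count rule through Chelator alone and 31 through DMSO alone, which favours a higher Chelator total. Members counted in all 6 libraries took 1.43% to 1.57% in DMSO and 1.67% to 1.77% in Chelator, a difference of 0.245 points. Mitochondrial genes took 22.3%, 15.3% and 21.1% of TPM in DMSO and 16.9%, 13.4% and 13.5% in Chelator. Of the TPM outside them the members took 1.89% to 1.92% in DMSO and 2.09% to 2.13% in Chelator, a difference of 0.201 points. As a part of assigned reads the members took 2.58% to 2.61% in DMSO and 3.01% to 3.28% in Chelator. Shorter retained-intron transcripts, which are not members, moved the same way, from 1.18% to 1.33% of reads in DMSO to 1.46% to 1.72% in Chelator. Transcripts typed as nonsense-mediated decay took 2.66% to 2.71% of reads in DMSO and 3.02% to 3.35% in Chelator. An exact permutation test of 3 against 3 libraries cannot give a two-sided p below 0.10, and none is given for these totals.

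Most members were a minor part of their gene: 3307 had a mean share under 1% in DMSO, and 232 had 50% or more. The most abundant member was EEF1A1-207 of a translation elongation factor, with 2359, 2557 and 2431 TPM in DMSO and 3567, 3026 and 3253 TPM in Chelator. It took 28.4% to 30.4% of its gene in DMSO and 31.7% to 33.7% in Chelator, which did not pass the usage test (adjusted p = 1). RPL4-203, of a large-subunit ribosomal protein, followed, and its share of 29.8% to 31.5% in DMSO against 36.0% to 38.3% in Chelator did not pass either. HNRNPA1-259, of an RNA-binding splicing repressor, had shares of 4.80% to 5.66% and 6.75% to 7.14%. ATP5MC3-205, of a subunit of the mitochondrial ATP synthase, had 21.3% to 22.1% and 15.1% to 17.2%. KCNH2-203, the other member of this most abundant group, is described below.

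Retained-intron shares differed between Chelator and DMSO more often upward than downward. The class could be tested in 4149 genes with edgeR's test of differential usage, a call being a Benjamini-Hochberg adjusted p under 0.05 with a mean share changed by over 5 percentage points. A class counted only through the group where it is high had to differ, so the counts that follow are for the 3540 genes whose class had at least 10 reads in all 6 libraries. Of these, 100 were called higher and 22 lower in Chelator. Over all kinds of transcript class counted in the same way, 3.02% were called higher and 0.805% lower, against 2.82% and 0.621% here, so the calls were about as frequent as for transcripts in general. Among all 4149 genes the calls were 108 and 24 (2.60% and 0.578%, beside 3.12% and 0.73% over all classes). Leaving out Chelator replicate 2 or 3 brought the 108 down to 58 or 62, and the 24 down to 13 or 10, and leaving out DMSO replicate 2 brought the 24 down to 13. With limma on log2 TPM ratios the calls were 60 higher and 41 lower. Of the 37 called genes named in the text 13 lost the call with limma, namely CWC15, TIAL1, POLD1, PSMC4, PSMD11, SIRT6, PPP1CC, IGF2R, CPOX, TBK1, WSB1, MELTF and ULK2.

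Many more shares shifted without overlap than were called. In 1053 of the 3540 genes (29.7%) the 3 Chelator shares lay above the 3 DMSO shares, and in 355 (10.0%) they lay below. Over all classes the same figures were 19.1% and 17.9%. All 4149 genes include classes not counted in every library. Their median share was 4.27%, 4.24% and 4.004% in DMSO and 4.87%, 5.41% and 5.10% in Chelator. For single members counted in all 6 libraries the median share was 2.16%, 2.24% and 2.17% in DMSO and 2.47%, 2.71% and 2.58% in Chelator. The median difference of the summed share over the 3540 genes was 0.409 points. Shares above DMSO without overlap were more frequent in well-expressed genes. Shares lay above DMSO in 38.9% and below in 9.01% of 1709 genes with a mean normalised count of 5000 or more. The figures were 23.3% and 9.99% of 1552 genes between 500 and 5000, and 9.68% and 16.5% of 279 genes under 500, where the direction was turned. The median differences were 0.414 points at 5000 or more, 0.465 points between 500 and 5000, and -1.27 points under 500. The size of the shift was thus not larger in the highest bin.

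**Figure D1:**
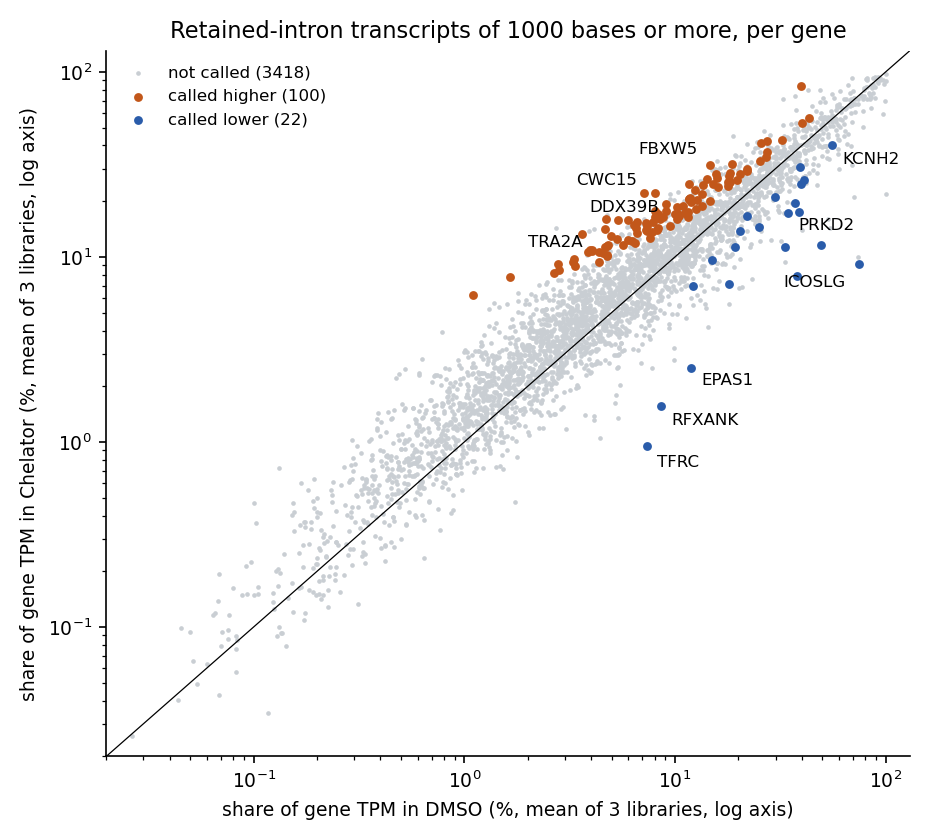
Mean retained-intron share of a gene's TPM in DMSO (x) and in Chelator (y), in percent on log axes, for the 3540 genes counted in all 6 libraries, with the line of equal shares. The 100 orange genes were called higher and the 22 blue genes lower; TFRC, RFXANK and EPAS1 are the blue points far below the line at DMSO shares between 7.33% and 11.9%.

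Single members gave fewer calls than their sums. Of 8444 members tested, 37 were called higher and 9 lower (0.438% and 0.107%, beside 1.11% and 0.387% of the 73452 transcripts of all kinds), and 19 and 4 of these had 10 reads in all 6 libraries, where the figures over all transcripts were 0.762% and 0.34%. Shares lay above DMSO without overlap in 25.3% and below in 10.4% of the 5962 tested members counted in all 6 libraries, beside 17.6% and 17.5% over all such transcripts. The calls of members did not keep their balance: limma gave 40 higher and 49 lower, there were 22 and 17 higher without Chelator replicate 2 or 3, and 17 lower without Chelator replicate 1. The excess was larger for members with a complete intron, at 29.2% above and 7.92% below of 3221, than for those that start or end inside one, at 20.5% and 13.2% of 2568. In level, 330 of the 6034 members counted in all libraries rose past a log2 fold change of 1 and 103 fell past -1, beside 5.1% higher and 3.17% lower over all transcripts. Over all members the counts were 450 and 129, and they fell to 177 and 211 higher without Chelator replicate 2 or 3, and to between 70 and 81 lower without Chelator replicate 2 or any 1 DMSO library, while DESeq2 gave 216 lower. The 4288 genes that hold the 8586 members, which include members not counted in every library, passed the same limits in 278 cases upward and 72 downward (6.48% and 1.68%, beside 7.81% and 2.46% over all genes).

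A share can rise because the retained-intron transcripts rise or because the others fall, and both were seen. Among the 100 genes called higher, the TPM of the retained-intron transcripts lay above DMSO without overlap in 80, with a median ratio of 1.80. The TPM of the gene's other transcripts lay below DMSO in 58 of them, with a median ratio of 0.836. As whole genes, 4 of the 100 were called higher in expression and 2 lower. Among the 22 genes called lower, the retained-intron TPM lay below in 13 (median ratio 0.658), the other transcripts lay above in 13 (median ratio 1.30), and 7 genes were called higher in expression.

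**Figure D2:**
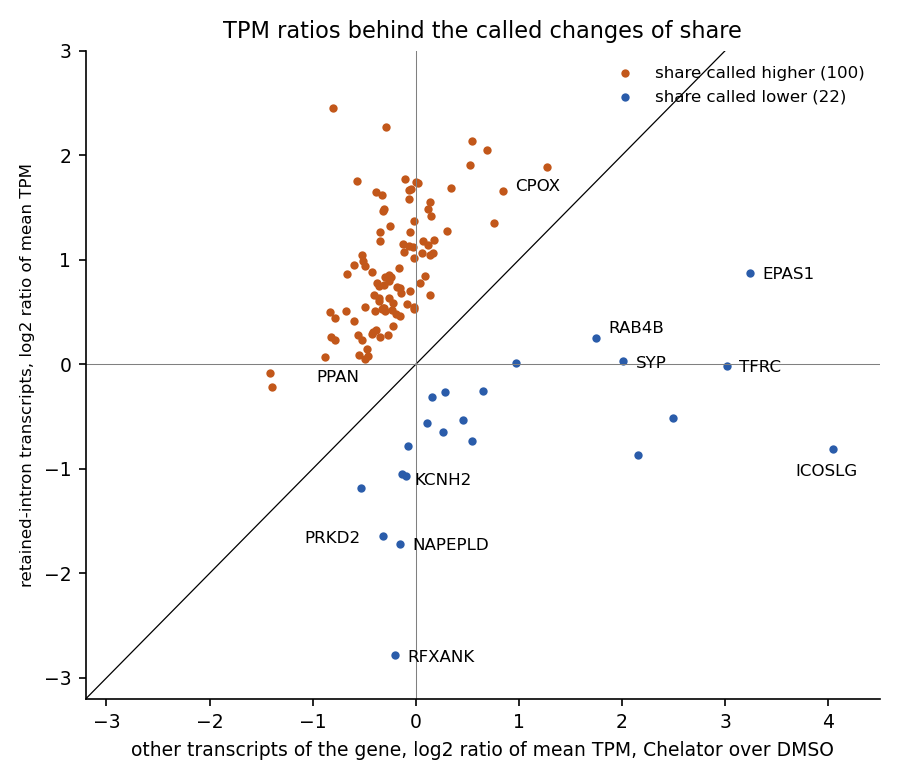
Log2 ratio of mean TPM, Chelator over DMSO, of the other transcripts of a gene (x) and of its retained-intron transcripts (y), for the 122 called genes with 10 reads in all 6 libraries. Genes with a higher share (orange) lie above the line of equal ratios by construction; among those with a lower share (blue), TFRC, SYP and RAB4B lie far to the right near y = 0, and RFXANK, PRKD2, NAPEPLD and KCNH2 lie well below it.

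Genes for the splicing machinery were among the rises. CWC15 had a retained-intron share of 9.98%, 4.74% and 9.41% in DMSO and 16.1%, 26.6% and 23.9% in Chelator, all of it from CWC15-206, which keeps intron 3. The groups did not overlap, and the TPM of its other transcripts stayed at 34.5 to 39.7 in DMSO and 37.6 to 40.1 in Chelator. The gain of 14.1 points passed the test on the class (adjusted p = 0.0018) and, less firmly, on the transcript (adjusted p = 0.047). The transcript call was lost without 5 of the 6 libraries in turn (largest adjusted p = 0.314), and the class call was kept in all 6 fits but not with limma (adjusted p = 0.057).

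DDX39B had shares of 11.5%, 10.4% and 10.9% in DMSO and 17.0%, 19.0% and 20.7% in Chelator (adjusted p = 5.0e-05). Most of it was assigned to DDX39B-215, which keeps the 2455-base intron 6, has 0 bases of its own among the gene's transcripts and went from 6.24% to 7.16% up to 11.4% to 14.3% of the gene (adjusted p = 0.0015). DDX39B-219, which keeps 2 complete introns, took 3.68% to 4.40% in DMSO and 4.48% to 5.08% in Chelator and did not pass (adjusted p = 1). The 2 members thus differed in whether they were called, but the difference between them was not tested.

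TRA2A, a splicing activator that works beside the SR proteins, had shares of 3.86%, 4.68% and 5.07% in DMSO and 8.97%, 11.6% and 10.8% in Chelator. All came from TRA2A-209, and the class was called higher (adjusted p = 0.00018) while the gene's other transcripts fell from 63.5 to 79.2 TPM down to 50.4 to 53.7 TPM. TIAL1 went from 22.7%, 20.2% and 22.6% to 30.0%, 29.7% and 30.1% (adjusted p = 0.00039, and 0.068 with limma). Within it, TIAL1-209, the member of highest TPM, was level at 16.5% to 19.7% and 16.6% to 18.6%. The gain lay in TIAL1-211, with 3.11%, 0% and 0% in DMSO and 8.24% to 10.2% in Chelator. These 2 members have few or no bases of their own, so the class share is the firmer value.

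Across 9 SR protein and TRA2 genes, shares lay above DMSO without overlap in 6 and below in 0, beside 29.7% and 10.0% of all 3540 genes, and 1 gene was called. In SRSF3, an SR protein gene, single members went in opposite directions. SRSF3-207 rose from 2.35%, 2.51% and 2.49% to 5.41%, 4.66% and 4.25% of the gene (adjusted p = 1.4e-05, 2.32 points, under the limit of 5). SRSF3-201 went from 2.64%, 4.05% and 1.37% to 0% in all Chelator libraries. That member has 0 bases of its own among the gene's transcripts, so its level rests on how salmon divided shared reads. The gene's total share was 6.05% ± 1.1 and 5.96% ± 0.52 (SD, n = 3). These shares of TPM overlapped and differed by -0.085 points, while the usage test on the class, which works on counts, gave a log2 change of 0.56 (edgeR, adjusted p = 0.0022). SRSF2, another SR protein, had class shares of 1.53% to 1.83% and 3.47% to 4.60%. SRSF2-209 has no base that is absent from other transcripts of the gene.

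The counts of the next 4 lists stand beside the same 29.7% and 10.0%. The spliceosome and splicing kinase list gave shares above DMSO in 18 of 36 genes and below in 1. Of 17 hnRNP and PCBP genes 8 lay above and 3 below. HNRNPU, a nuclear matrix RNA-binding protein, went from 4.43% to 5.45% up to 7.75% to 8.59% (adjusted p = 1.0e-05), a change of 3.40 points that is under the limit of 5 and no call. Its retained-intron TPM was 27.0 to 32.5 in DMSO and 31.5 to 32.3 in Chelator, while its other transcripts fell from 548 to 640 TPM down to 341 to 376 TPM. HNRNPA2B1-207, of another such protein, went from 8.58%, 9.64% and 9.08% down to 6.93%, 3.27% and 3.72% (adjusted p = 0.040, change of -4.46 points). Of 13 genes for RNA export and nuclear speckles 6 lay above and 0 below, and of 11 nonsense-mediated decay genes 4 lay above and 1 below.

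PCBP2-209 keeps intron 12 of the gene for poly C-binding protein 2. It took 0.391%, 0.402% and 0.508% of PCBP2 in DMSO and 0.996%, 1.63% and 1.72% in Chelator. Its level rose from 2.05, 2.38 and 2.71 TPM to 5.01, 7.46 and 7.88 TPM, a log2 fold change of 1.44 (edgeR, adjusted p = 0.0084), while the other transcripts of PCBP2 lay at 523 to 591 TPM and 450 to 498 TPM. The usage test gave an adjusted p of 0.014, and the change of 1.01 points is under the 5-point limit. The last 50 bases of this intron are 16% C and hold no CCCC.

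**Figure D3:**
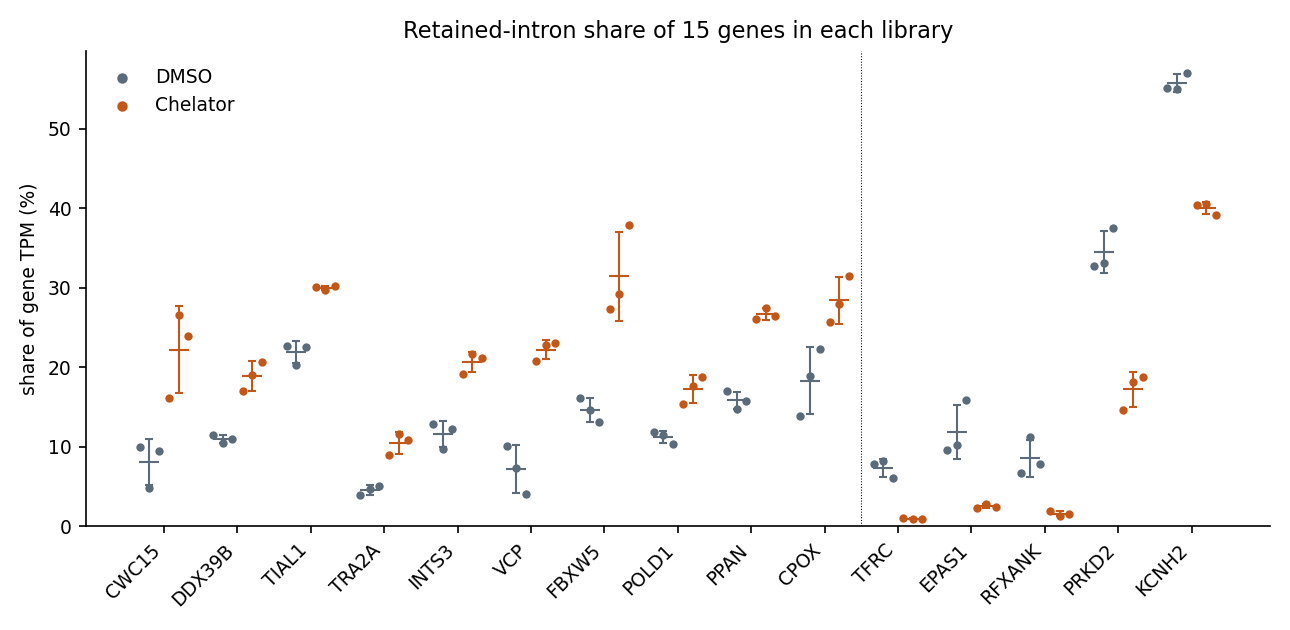
Retained-intron share of gene TPM in percent for 15 genes, with each library as a point, the group mean as a dash and the SD as a bar. The 10 genes left of the dotted line were called higher in Chelator and the 5 genes right of it lower; in none of the 15 do the groups overlap.

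VCP, an ATPase that extracts ubiquitylated proteins, had shares of 10.1%, 7.31% and 4.03% in DMSO and 20.8%, 22.8% and 23.0% in Chelator (adjusted p = 0.0011). Nearly all of the rise was VCP-205, at 2.64% to 6.31% and 16.9% to 20.05% of the gene (adjusted p = 0.00034). Its gain was 14.3 points as a share of TPM and 5.83 points as a share of reads. That member has 0 bases of its own among the gene's transcripts, and 223 outside coding ones. FBXW5, a substrate receptor of a ubiquitin ligase, went from 16.1%, 14.6% and 13.04% to 27.3%, 29.1% and 37.8% (adjusted p = 0.00021).

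ATP6V0A2, a subunit of the proton pump of acidic vesicles, had 23.9% to 28.5% in DMSO and 39.2% to 42.1% in Chelator, and IGF2R, a receptor that carries lysosomal enzymes, had 38.3% to 42.6% and 48.5% to 55.9%. ATP6V0A2 lost its class call without Chelator replicate 2 (adjusted p = 0.069), and IGF2R without Chelator replicate 2 or 3 or DMSO replicate 3 (largest adjusted p = 0.185). CDC42SE1, a small effector of the GTPase CDC42, went from 5.43% to 7.46% up to 11.6% to 14.8%, by CDC42SE1-204 alone. PPP1CC-203, of a protein phosphatase catalytic subunit, rose from 2.71% to 7.13% up to 11.5% to 14.8%, but it has 0 bases outside the gene's coding transcripts and exons of other genes. Its call and that of its class were lost without Chelator replicate 3 (adjusted p = 0.066 and 0.055). As a share of reads, PPP1CC-203 gained 4.31 points and the IGF2R member IGF2R-209 gained 4.24 points, both under the limit of 5. In the proteasome and ubiquitin list 15 of 24 genes lay above DMSO and 0 below, beside 29.7% and 10.0% of all 3540 genes. PSMC4 and PSMD11, of the proteasome's regulatory particle, were called at 3.87% ± 1.0 against 10.6% ± 3.5 and at 12.6% ± 2.0 against 18.1% ± 2.6 (SD, n = 3). PSMC4 was no longer called without Chelator replicate 3, and PSMD11 without Chelator replicate 2 or DMSO replicate 2, where its change fell under 5 points.

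Among genes of DNA and RNA synthesis, INTS3, of the Integrator complex that processes small nuclear RNAs, had 12.8%, 9.68% and 12.3% in DMSO and 19.2%, 21.6% and 21.1% in Chelator (adjusted p = 0.00021). Its member INTS3-207 keeps introns 4 and 5 of 29 and has 1651 bases of its own. POLD1, the catalytic subunit of DNA polymerase delta, went from 11.8%, 11.4% and 10.3% to 15.3%, 17.6% and 18.8% (adjusted p = 0.00075, and 0.072 with limma). PPAN, a factor for assembly of the large ribosomal subunit, went from 14.8% to 17.0% up to 26.001% to 27.5%. Its retained-intron TPM overlapped, at 12.2 to 13.4 and 11.7 to 14.4, and its other transcripts fell from 65.8 to 70.7 TPM down to 33.2 to 39.3 TPM.

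XPOT, the nuclear exporter of transfer RNAs, had 3.33% to 5.61% and 9.71% to 11.2%, and its class call was lost without 4 of the 6 libraries in turn (largest adjusted p = 0.139). As a share of reads its member XPOT-206 gained 2.23 points, under the limit of 5. The list of DNA replication and repair gave 12 of 29 genes above and 3 below, and that of histone and DNA methylation 18 of 35 above and 2 below, beside 29.7% and 10.0% of all genes. SIRT6, a chromatin deacetylase, was called at 7.25% ± 0.83 against 15.3% ± 5.2 (SD, n = 3), but not when any 1 library was left out (adjusted p up to 0.455).

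Of 11 iron-handling genes 3 lay above DMSO and 1 below, near the 29.7% and 10.0% of all 3540 genes. The one below was TFRC, whose product takes up transferrin-bound iron. Its retained-intron share was 7.79%, 8.13% and 6.07% in DMSO and 1.02%, 0.938% and 0.888% in Chelator (adjusted p = 1.0e-07), and the call held with each library left out in turn. The retained-intron transcripts themselves were level, with 17.7, 20.4 and 17.6 TPM in DMSO and 18.5, 18.5 and 18.1 TPM in Chelator, a ratio of 0.989. The other transcripts of TFRC stood at 209, 231 and 273 TPM in DMSO and 1795, 1958 and 2017 TPM in Chelator, a ratio of 8.10. The 9 members were uneven within this level sum: TFRC-211 fell (log2 fold change -1.27, edgeR, adjusted p = 0.010) and TFRC-221 rose (log2 fold change 2.27, edgeR, adjusted p = 0.0059). TFRC-221 was low throughout, at 0.0992, 0.190 and 0.121 TPM in DMSO and 0.608, 0.667 and 0.835 TPM in Chelator. TFRC-214 also fell, by less than the limit (log2 fold change -0.77, edgeR, adjusted p = 0.032), and TFRC-235, which keeps intron 12, had a log2 fold change of 0.31 that did not pass (adjusted p = 0.39).

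The mitoferrins, which bring iron into mitochondria, gave another picture. SLC25A37 (mitoferrin-1) had a retained-intron share of 56.3%, 57.6% and 52.9% in DMSO and 57.3%, 57.3% and 59.8% in Chelator, and the groups overlapped. Its retained-intron TPM was 36.4 to 42.4 and 79.2 to 93.6, a ratio of 2.23, beside a ratio of 2.004 for its other transcripts. SLC25A28 (mitoferrin-2) had 33.7%, 19.5% and 26.01% in DMSO and 45.7%, 45.8% and 53.1% in Chelator. The groups did not overlap, but the class did not pass (adjusted p = 0.18), at levels of only 1.29 to 2.05 and 2.69 to 4.38 TPM. TFR2, a second transferrin receptor, had 10.3% to 13.5% and 11.7% to 15.2%, and FECH, which inserts iron into heme, had 1.12% to 1.56% and 1.22% to 1.41%. CPOX, an earlier enzyme of heme synthesis, was called higher, from 13.8%, 18.9% and 22.2% to 25.7%, 28.0% and 31.5% (adjusted p = 0.00080, and 0.10 with limma). Both its retained-intron transcripts (ratio 3.17) and its other transcripts (ratio 1.79) stood higher in Chelator.

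**Figure D4:**
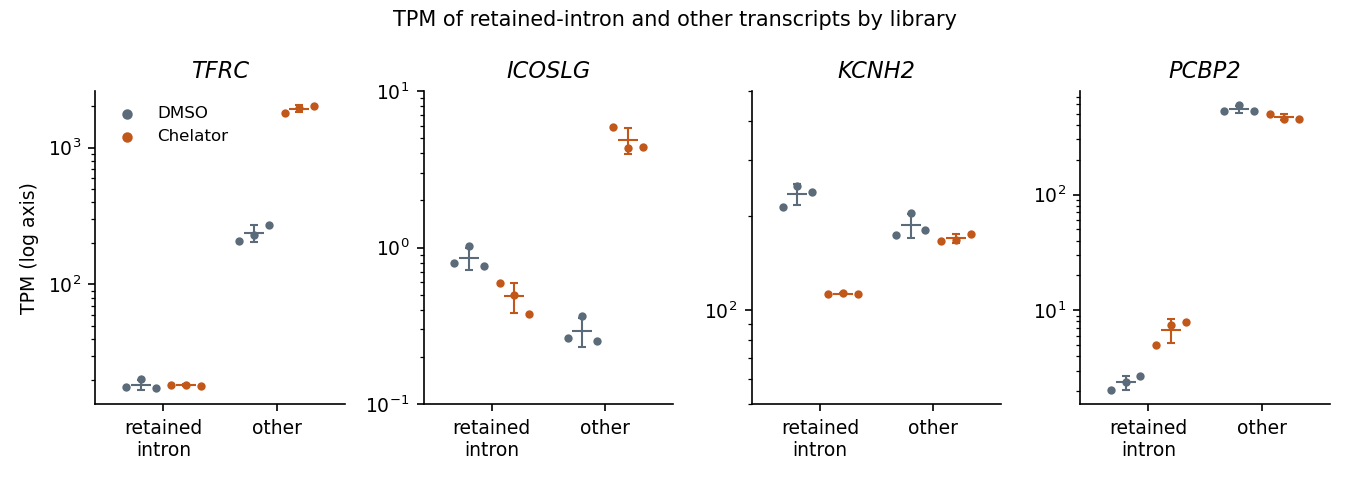
TPM on a log axis of the retained-intron transcripts and of all other transcripts of TFRC, ICOSLG, KCNH2 and PCBP2 in each library, with mean and SD (n = 3). Retained-intron TPM is level in TFRC (ratio 0.989), lower in Chelator in ICOSLG (0.570) and KCNH2 (0.483), and higher in PCBP2 (2.85).

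Lower shares too came with changes in either part of the gene, and in some genes in both. In the genes given first, the other transcripts stood higher in Chelator. Beside TFRC, EPAS1, which encodes the hypoxia-inducible factor HIF-2alpha, went from 9.59%, 10.2% and 15.8% to 2.25%, 2.81% and 2.46% (adjusted p = 0.00070), with a ratio of 1.83 for the retained-intron transcripts and 9.44 for the others. ICOSLG went from 74.995%, 73.6% and 75.001% to 9.11%, 10.3% and 7.92% (adjusted p = 1.1e-05). Its member ICOSLG-209, which keeps intron 3, stood at 0.760, 1.00 and 0.703 TPM in DMSO and 0.390, 0.304 and 0.219 TPM in Chelator, while the other transcripts rose from 0.254 to 0.366 TPM up to 4.32 to 5.90 TPM. SYP, a synaptic vesicle protein, and RAB4B, an endosomal GTPase, did so too, with ratios of 1.02 and 1.19 for the retained-intron transcripts and 4.03 and 3.35 for the others. Their calls were lost without 3 and 6 of the 6 libraries in turn (largest adjusted p = 0.079 and 0.17).

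In other genes the retained-intron transcripts stood lower in Chelator. KCNH2, a potassium channel gene, had 55.1%, 55.0% and 57.0% in DMSO and 40.4%, 40.5% and 39.1% in Chelator (adjusted p = 3.0e-06). KCNH2-203, which has 0 bases of its own among the gene's transcripts, fell from 183, 217 and 205 TPM to 93.2, 93.6 and 89.4 TPM, and the gene's other transcripts outside the class overlapped, at 174 to 204 and 166 to 175 TPM. PRKD2, a protein kinase gene, went from 32.7%, 33.1% and 37.5% to 14.6%, 18.1% and 18.8%, all of it PRKD2-209 (log2 fold change -1.67, edgeR, adjusted p = 0.0015). RFXANK, a regulator of MHC class II genes, went from 6.64%, 11.2% and 7.80% to 1.89%, 1.22% and 1.55%, and RFXANK-210 fell by 2.73 on the log2 scale (edgeR, adjusted p = 0.0019). All 3 class calls held with each library left out in turn. The transcript call of PRKD2-209 was lost without 5 of the 6 libraries in turn (largest adjusted p = 0.135). NAPEPLD, a phospholipase, had a retained-intron ratio of 0.304 and 0.897 for the rest, and its call was lost without 3 libraries in turn.

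The 10 largest changes of the summed share in each direction were chosen after the values were seen. The rises not yet named were in a readthrough gene without a symbol (ENSG00000255508, 39.5% to 84.3%), TBK1, a kinase of innate immunity (27.3% to 42.2%), WSB1, a ubiquitin ligase receptor (18.7% to 31.8%), PAXBP1, a transcription cofactor (43.1% to 56.1%), and INO80, a chromatin remodeler (11.7% to 24.7%). The member of ENSG00000255508 has only 30 bases of its own in the gene. Just 5 of its 1954 bases lie outside exons of other genes, so its share is poorly told apart from theirs. The falls not yet named were in DNM1 (37.0% to 19.6%), CSNK2A2 (40.8% to 25.96%), MELTF (39.4% to 24.7%) and NUDCD1 (24.95% to 14.5%). Of these 9, TBK1 and PAXBP1 kept the call with each library left out in turn. MELTF and NUDCD1 lost it without each of the 6 libraries in turn (largest adjusted p = 0.1926 and 0.1365). DNM1 lost it without 5 of the 6, and the others lost it at least once. TBK1 lost it with limma (adjusted p = 0.071). ULK2, an autophagy kinase, was also called lower, but its member ULK2-203 reached 10 reads in the DMSO libraries alone, so that its direction was fixed by the filter. The class call of ULK2 was lost without 3 of the 6 libraries in turn (largest adjusted p = 0.087).

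Genes with introns known from earlier work to be regulated had retained-intron shares above DMSO in 5 of 11 and below in 1, beside 29.7% and 10.0% of all genes. These shares sum all retained-intron transcripts of a gene, and the known introns were not matched to them. OGT, whose product attaches O-GlcNAc, had 18.4%, 14.2% and 9.25% in DMSO and 18.02%, 19.0% and 20.3% in Chelator, and overlapped. ARGLU1, a splicing coactivator, overlapped as well, at 52.4% to 60.6% and 41.0% to 67.7%. MAT2A, which makes the methyl donor, had 6.72% to 7.44% and 4.90% to 5.88%, and did not pass (adjusted p = 0.62). SNRNP70, of the U1 particle, had 3.40% to 3.91% and 3.82% to 4.15%.

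The other gene lists are described by counts alone, to be read beside the 29.7% above DMSO and 10.0% below over all 3540 genes, and no difference between lists was tested. Cytosolic ribosomal proteins went the other way from most, with 6 of 41 genes above DMSO and 17 below, though their shares were small (list median 0.213% to 0.251% in DMSO and 0.206% to 0.263% in Chelator). RPS2, of the small subunit, had 2.12% to 2.22% in DMSO and 1.66% to 1.78% in Chelator. Hypoxia-inducible genes gave 5 of 18 above and 5 below. Among them VEGFA, a vessel growth factor, had 28.9% to 34.4% and 35.8% to 38.4%, without overlap. Its retained-intron TPM went from 8.30 to 9.29 up to 56.3 to 77.1, a ratio of 7.66, beside a ratio of 5.79 for its other transcripts. ENO1-210, of the glycolytic enzyme enolase, fell from 0.630% to 0.693% down to 0.199% to 0.290% of the gene (adjusted p = 3.2e-06), a change under the limit of 5 points.

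Respiratory chain and TCA cycle genes had 12 of 23 above and 2 below, and genes of the integrated stress response and transfer RNA charging 10 of 20 above and 2 below. NDUFA9-202, of respiratory complex I, went from 39.9% to 40.5% down to 26.2% to 27.5% of the gene's TPM without a call (adjusted p = 1). The usage test works on reads, of which short isoforms hold few, whereas TPM counts molecules, so the 2 measures can part in genes with short isoforms. Several lists lay near the figures over all genes or held few genes. Nucleolar genes gave 8 of 22 above and 2 below, autophagy and lysosome genes 8 of 23 and 2, cholesterol synthesis 3 of 12 and 0, heme and erythroid genes 2 of 13 and 2, early response genes 3 of 7 and 1, and genes of G2 and mitosis 1 of 8 and 1.

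**Figure D5:**
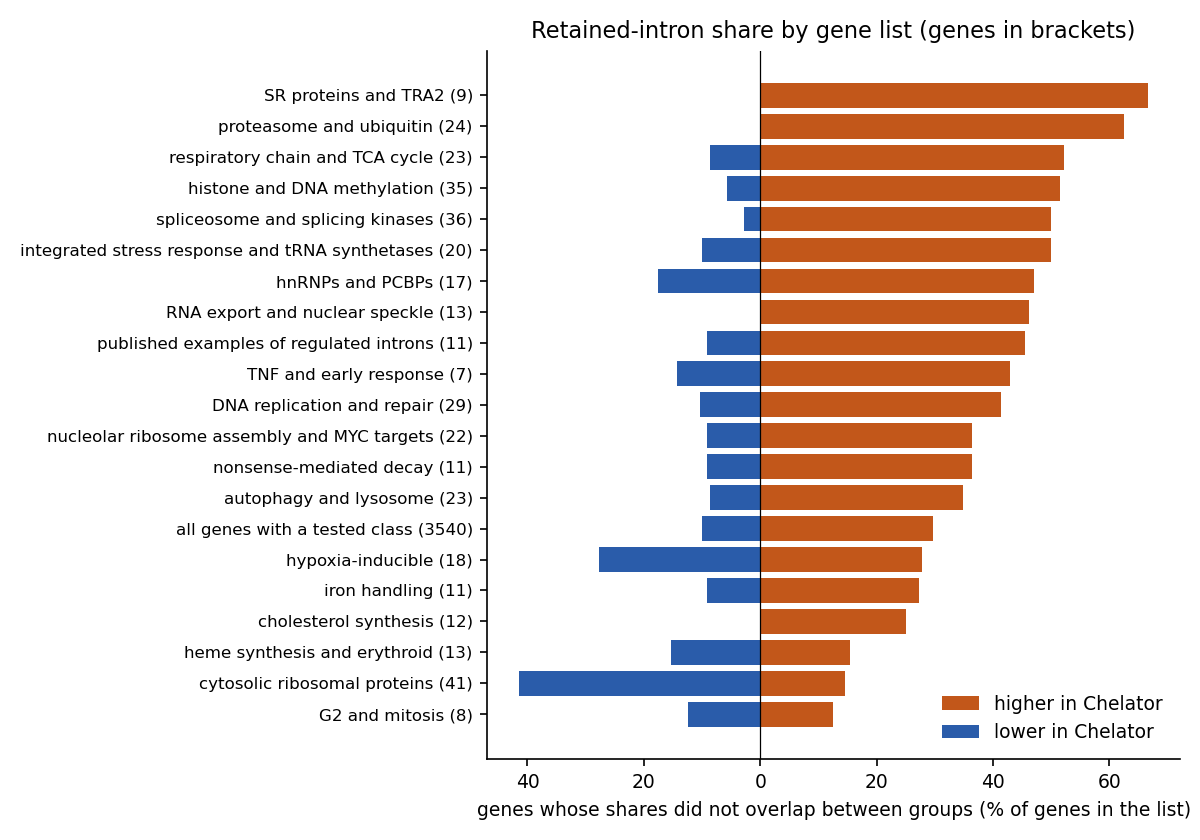
Percent of the genes of each list whose 3 Chelator shares lay all above (orange, right) or all below (blue, left) the 3 DMSO shares, for genes counted in all 6 libraries, whose number is in brackets. SR proteins and TRA2 (6 of 9 above) and the proteasome and ubiquitin list (15 of 24) lie at the top, and cytosolic ribosomal proteins have the longest blue bar (17 of 41).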

How the data were processed

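The authors quantified each library against transcripts with salmon. Per the labels' processing notes the version was 1.10.2 and the build hg38. The deposited values are estimated counts per transcript (not whole, since reads are divided among isoforms) and TPM, which the authors' tool corrects for effective length. Transcripts were matched to GENCODE v44 by identifier (433 of 252045 had no match; 0.139% to 0.150% of reads). The members and gene lists were chosen with earlier results of these data known.

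Shares are TPM of a transcript, or of all retained-intron transcripts of at least 1000 bases, over the gene's TPM. Usage was tested on rounded estimated counts with edgeR 4.0.16 (quasi-likelihood, diffSpliceDGE, TMM) over all transcripts that reached 10 counts in 3 or more libraries, level with edgeR, and genes with DESeq2 1.42.0 and a length offset. P-values were Benjamini-Hochberg adjusted over all features. A usage call needed adjusted p under 0.05 and a share changed by over 5 points; level and gene calls needed a log2 fold change beyond 1. The tests were checked on simulated data. Named: the 10 largest called rises and falls of members with 10 counts in all libraries, no overlap and a gene mean of 500 normalised counts; the 5 most abundant members; the highest-TPM members and calls of the splicing, regulated-intron and iron lists; up to 4 of other lists. The labels give 3 biological replicates per condition.

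Alternatives were limma 3.58.1 on log2 TPM ratios (pseudocount 0.1), a length offset, median-ratio size factors, other filters and limits, a replicate block and leaving out each library. The count tests pool the spread over a gene's transcripts, and salmon's own uncertainty in dividing reads was not used here. Some cell type markers were checked and are not reported here.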

Additional observations from a re-analysis of the deposited data

How the results depend on the processing

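The 52 named changes of share that were called kept their direction in every alternative run, and 537 of 676 values kept their call while 139 lost it. Named changes without a call were not run under the alternatives. The summed retained-intron share was called higher in 60 genes and lower in 41 with limma on log2 TPM ratios (108 and 24 with edgeR), of which 59 calls in all were shared, and in 25 and 14 genes with a limit of 10 points. For single members (37 and 9), the counts were 15 higher with a limit of 10 points, 40 higher and 49 lower with limma, 4 lower with a total count above 10 as the filter, and 19 and 4 with 10 counts in all 6 libraries, an alternative chosen after seeing the data. DESeq2 called 216 members lower in level (129 with edgeR). The difference of the members' total was 0.588 points over estimated counts, against 0.266 over TPM and 0.201 over TPM outside mitochondrial genes, the last chosen after seeing the data. For members counted in all 6 libraries the same differences were 0.546, 0.245 and 0.181 points. Apart from the block and the left-out libraries below, in the other settings the counts stayed within 1.5 times.

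Leaving out 1 library gave 58 to 131 genes higher and 10 to 21 lower for the summed share, 17 to 41 members higher and 6 to 17 lower in usage, 177 to 396 higher and 70 to 142 lower in level, and 265 to 293 host genes higher and 57 to 75 lower. Usage of members rested on Chelator replicates 2 and 3 (22 and 17 higher without each), and without Chelator replicate 1 there were 17 lower. For level, the counts without Chelator replicates 2 and 3 were 177 and 211 higher, without Chelator replicate 2 81 lower, and without DMSO replicates 1, 2 and 3 71, 72 and 70 lower. The cause was not tested. Replicate numbers did not pair the samples (correlations of same-numbered deviations -0.158, 0.0742 and 0.167). With the replicate number as a block the counts were 80 and 17 for the summed share, 25 and 8 for single members, and 92 and 34 for level, where the block uses up degrees of freedom. Members near 10 counts, and isoforms without bases of their own, are to be read with most care, and their measurement error was not compared.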
